A study of Danio rerio with 2 samples.

Results

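Cadherins are the calcium-dependent adhesion molecules of animal cells, and their genes were examined here in sorted cells of zebrafish larvae. Members were genes whose symbol began with CDH and a digit, CDHR, PCDH, FAT and a digit, DCHS, CELSR, DSC or DSG, or was DSP alone, with the CDH23 and PCDH15 genes left out. The symbols were those deposited with the values or those that a table of Ensembl identifiers gave. Of the 17668 genes measured, 59 fitted this rule. Of these, 4 fitted only by their letters and encode no cadherin, and they entered no group. The other 55 genes comprised 53 genes named as cadherins or protocadherins and 2 genes of desmoplakin, a plaque protein that desmosomal cadherins bind through linkers.

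The 55 genes fell into 5 groups. Classical cadherins (15 genes) join neighbouring cells at adherens junctions, where their cytoplasmic tails bind catenins and, through these, actin. Desmosomal cadherins, which are desmogleins and desmocollins, do so at desmosomes, the spot-like junctions that link the keratin filaments of epithelial cells, and were grouped with desmoplakin (4 genes). Protocadherins (15 genes) adhere more weakly and are best known for sorting cells and patterning connections in the nervous system. Fat and Dachsous are very large cadherins that bind each other between cells, and Celsr proteins, the Flamingo cadherins of vertebrates, are core components of planar cell polarity (13 genes together). The last group held the other cadherins (8 genes), among them the cadherin-related CDHR genes. In the ear, the tip link between stereocilia is built from the products of CDH23 and PCDH15.

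The GFP(+) and the GFP(−) library, 1 each, came from ppv3b:GFP larvae at 5 dpf (days post fertilization). Both populations carried the transgene, which marks mainly, but not only, hair cells (HCs) of the inner ear and the neuromasts. GFP(−) cells were the remaining sorted cells of the same larvae. Whole larvae were dissociated in trypsin and sorted by flow cytometry, and the number of larvae behind each library is not given in the sources used here. No difference below has a replicate check, and no test was made.

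Values are read counts per gene after quantile normalization and a floor of 20, called normalized reads here. They are not adjusted for transcript length, so each gene was compared only with itself between the populations, as the ratio of the GFP(+) to the GFP(−) value. The normalization gave the libraries an identical distribution of values, and their sequencing depth is unknown. A GFP(+) value of 48 or less was not treated as a measurement of its own, because genes with a deposited symbol were all at 20 in this range, whereas the values of nearly all others followed the GFP(−) value. Such values were held by 18.8% of all genes and by 15 of the 55 members, and a fold for them is given as a lower bound computed against 48. Because cells were pooled in each library, fewer cells of a type and less RNA per cell cannot be told apart.

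The sorted populations differed in several cell type markers. Ratios are of GFP(+) to GFP(−) throughout, higher or lower refers to the GFP(+) library, and in a pair of values joined by against the GFP(+) value stands first. Of 20 HC marker genes, 17 were at least 3-fold higher, and the summed value of the 20 was 100758 normalized reads against 5036.5 in GFP(−) cells. Most of the GFP(+) sum came from the parvalbumin genes pvalb8 (45625 against 2031.5) and pvalb9 (18272.5 against 481.5). ATOH1, a defining HC factor, was at the floor in GFP(−) cells. Of 12 genes of the superficial epidermis, which covers the larval skin, 11 were also at least 3-fold higher, and they summed to 8.65% of the GFP(+) library against 0.626% of the GFP(−) library. Of 9 genes of the motile axoneme, 7 were at least 3-fold higher as well. By contrast, 11 of 14 neuronal, 10 of 11 endothelial and 11 of 11 photoreceptor genes were at least 3-fold lower, as were 13 of 18 leukocyte genes. The 9 skeletal muscle genes had a median log2 ratio of −0.10.

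Of the 55 genes, 35 had ratios below 1 and 20 above, and of the 40 with GFP(+) values above 48, 20 lay on either side. Selecting on the GFP(+) value removes low ratios. Of all genes, 14339 had GFP(+) values above 48, and 8385 of these had ratios above 1. A ratio of 3 or more was found for 10 genes (18.2%), close to the 16.9% of all genes measured. Values were at least 3-fold lower for 17 (30.9%), against 16.4% of all genes. With GFP(+) values of up to 48 set to 48, it was so for 15 members and for 14.6% of all genes. The median log2 ratio was −0.70 for the members and −0.10 for all genes. The plot of values by gene arranges them by group.

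**Figure D1:**
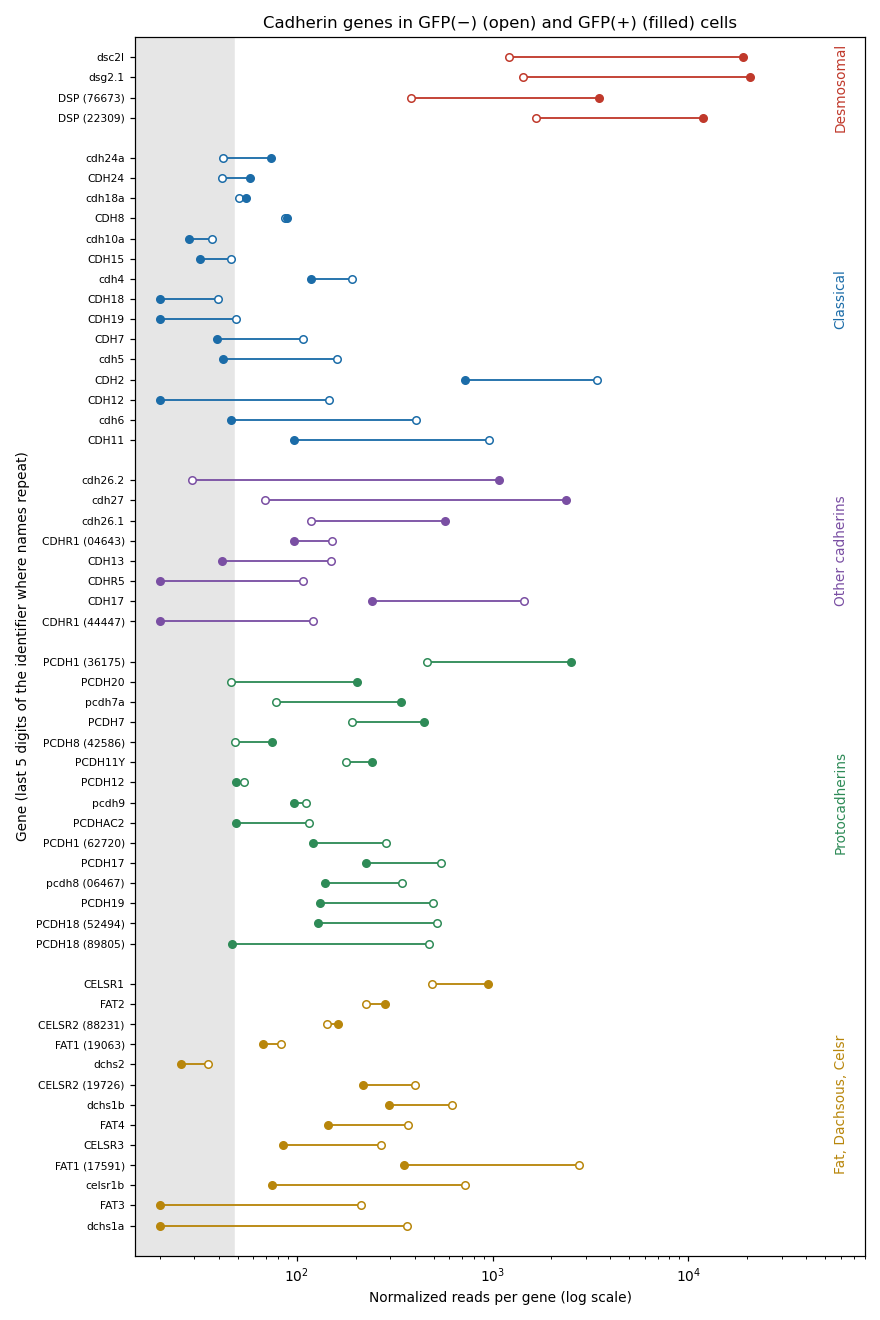
Normalized reads of the 55 genes in GFP(−) cells (open circles) and GFP(+) cells (filled circles) on a log axis, 1 library each, ordered within each group by their ratio. The grey area marks values of up to 48, which are not measurements of their own in the GFP(+) library. All 4 desmosomal genes lie to the right in GFP(+) cells, while CDH2, CDH11, CDH17 and the FAT1 gene ENSDARG00000017591 lie to the left.

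All 4 genes of the desmosomal group were higher in GFP(+) cells, by 7.18-fold to 15.7-fold, with a median log2 ratio of 3.52. The desmocollin gene dsc2l (ENSDARG00000039677) had 18932 normalized reads in GFP(+) cells against 1208 in GFP(−) cells, a 15.7-fold difference. The desmoglein gene dsg2.1 (ENSDARG00000076945) had 20535 against 1425.5, a 14.4-fold difference. These genes encode the partner cadherins of the desmosome, and among the protein-coding genes of the RefSeq annotation they are direct neighbours on chromosome 20. The difference was thus of similar size for a pair of neighbouring genes whose products meet in the same junction.

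The desmoplakin genes, whose product anchors keratin filaments to the desmosomal plaque, followed the same direction. ENSDARG00000022309 had 11900.5 normalized reads in GFP(+) cells against 1657.5 in GFP(−) cells (7.18-fold). ENSDARG00000076673 had 3485.5 against 383 (9.10-fold). Adding 100 to both values, which weakens ratios of low values, left the desmosomal median log2 ratio at 3.32. All 4 genes had at least 383 reads in each library, so that none of the ratios rests on values near the floor. The summed value of the group was 54853 normalized reads in GFP(+) cells against 4674 in GFP(−) cells, an 11.7-fold difference. Genes of the superficial epidermis moved in the same direction, with a median of 4.32 on the log2 scale over 12 genes. The keratin gene krt4 (ENSDARG00000017624), for example, had 978726 against 73615 normalized reads. Genes of the basal epidermis, the layer beneath, had a median log2 ratio of 0.18, and 1 of 12 was at least 3-fold higher. The part of RNA from skin cells in the desmosomal difference was not tested.

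No classical cadherin reached a 3-fold higher value (0 of 15, against 16.9% of all genes), and 5 were at least 3-fold lower (33.3%, against 16.4% of all genes). The median log2 ratio was −0.98, but 8 of the 15 genes had GFP(+) values of 48 or less. Among the 7 genes above that range, 4 had ratios above 1 and 3 below, and the median log2 ratio was 0.03. For all genes above that range it was 0.30. The group is therefore described by its single genes rather than by its median.

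Of the type I classical cadherins, 3 were measured. CDH2 (ENSDARG00000018693), the N-cadherin of neural and mesodermal tissue, had 3424 normalized reads in GFP(−) cells but 723 in GFP(+) cells, and was 4.74-fold lower. cdh4 (ENSDARG00000015002), the R-cadherin known from the retina and brain, had 118.5 against 192 and was 1.62-fold lower. CDH15 (ENSDARG00000068191), the M-cadherin of muscle precursors, stood at 46 in GFP(−) cells, too low for a direction to be read. cdh1, the E-cadherin gene of epithelia, was not analysed here.

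The type II cadherins with the lowest ratios included genes of mesenchyme, kidney and vessels. CDH11 (ENSDARG00000021442), the OB-cadherin of mesenchymal cells, had 963.5 normalized reads in GFP(−) cells but 96.5 in GFP(+) cells, and was 9.98-fold lower. cdh6 (ENSDARG00000014522), the K-cadherin of the developing kidney, was at least 8.51-fold lower, from 408.5 reads in GFP(−) cells. cdh5 (ENSDARG00000075549), the VE-cadherin that holds endothelial cells together, was at least 3.35-fold lower, from 161 reads. The endothelial marker genes, of which cdh5 was not one, had a median log2 ratio of −2.23, and each of the 11 was lower. CDH12 (ENSDARG00000074386), a cadherin of neurons, was at least 3.03-fold lower, from 145.5 reads, and CDH7 (ENSDARG00000023542) at least 2.23-fold, from 107 reads. The neuronal marker genes had a median of −2.96 on the log2 scale over 14 genes. The part of fewer neural or endothelial cells in these differences was not tested.

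The other type II cadherins had low values in both libraries. cdh24a (ENSDARG00000075960) had 73.5 normalized reads in GFP(+) cells against 42 in GFP(−) cells, the highest ratio of the classical group at 1.75-fold. CDH24 (ENSDARG00000077996) had 58 against 41.5, cdh18a (ENSDARG00000061371) 55 against 50.5 and CDH8 (ENSDARG00000037478) 89.5 against 87.5. These 4 genes were within 2-fold between the populations, and without replicates such differences cannot be told from none. CDH18 (ENSDARG00000067692), CDH19 (ENSDARG00000074991) and cdh10a (ENSDARG00000055843) had at most 49 reads in GFP(−) cells, and no direction can be read for them.

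The other cadherins divided into 3 genes with higher and 5 with lower values. At least 3-fold higher were 3 of the 8 (37.5%, against 16.9% of all genes). At least 3-fold lower were 4 (50%, against 16.4%), and 2 with GFP(+) values of up to 48 set to 48. The median log2 ratio was −1.25, but 0.81 over the 6 genes above the floor in both libraries, so it does not describe the group. cdh27 (ENSDARG00000055093) had 2380 normalized reads in GFP(+) cells against 69 in GFP(−) cells, a 34.5-fold difference. cdh26.2 (ENSDARG00000087641) had 1072.5 against 29, which is 37.0-fold and the highest ratio of all 55 genes. Its neighbour in the RefSeq annotation, cdh26.1 (ENSDARG00000078404), had 568.5 against 118 and was 4.82-fold higher. CDH26 is known in humans from epithelia of the airways and gut. The sizes of these ratios rest on low GFP(−) values, and with 100 added to both values they became 14.7-fold for cdh27, 9.09-fold for cdh26.2 and 3.07-fold for cdh26.1. All 3 ratios were thus still 3-fold or more, but cdh27 and cdh26.2 changed places.

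The lower genes of this group were led by CDH17 (ENSDARG00000005112), the cadherin of liver and intestine in mammals and of the pronephric kidney in zebrafish. It had 1454 normalized reads in GFP(−) cells but 241.5 in GFP(+) cells, a 6.02-fold difference. Of 7 marker genes of intestine and kidney epithelium, 6 were lower, 3 of them by 3-fold or more, and 4 of the 7 had GFP(+) values of 48 or less. The SLC20A1 gene ENSDARG00000010641 was higher, with 28482.5 against 17557.5. It held most of the summed reads of the list, which were 28793.5 against 23440. The part of fewer such cells in the CDH17 difference was not tested. CDHR5 (ENSDARG00000090275), a cadherin of the brush border in intestine and kidney, was at least 2.23-fold lower, from 107 reads in GFP(−) cells. CDH13 (ENSDARG00000014215), the T-cadherin, which is held in the membrane by a lipid anchor and lacks a cytoplasmic tail, was at least 3.13-fold lower, from 150 reads. CDHR1 is the cadherin of photoreceptor outer segments. Its gene ENSDARG00000004643 had 151.5 reads in GFP(−) cells but 96.5 in GFP(+) cells (1.57-fold lower), and ENSDARG00000044447 had 120.5 in GFP(−) cells and was at the floor in GFP(+) cells. The photoreceptor marker genes were all lower, with a median log2 ratio of −4.29 over 11 genes.

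Protocadherins had a median log2 ratio of −0.21, close to the −0.10 of all genes. Of the 15 genes, 3 were at least 3-fold higher and 3 at least 3-fold lower, each a share of 3 in 15, against 16.9% and 16.4% of all genes. These shares are near the background. The median depended on single genes. Without the PCDH1 gene ENSDARG00000036175 it was −0.72, and it was also −0.72 over the 12 genes with a mean of at least 100. Over the 14 genes with GFP(+) values above 48 it was −0.17, against 0.30 for all genes in that range. Whether the group as a whole shifted can therefore not be read. Of the 15 genes, 14 were non-clustered protocadherins, which have their own promoters and separate loci. The only clustered gene was PCDHAC2 (ENSDARG00000092081), with 115 normalized reads in GFP(−) cells but 49 in GFP(+) cells. A further 36 clustered protocadherin identifiers of the table of names were not analysed here.

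The highest protocadherin was PCDH1 (ENSDARG00000036175), whose human orthologue is known from the airway epithelium. It had 2530 normalized reads in GFP(+) cells against 463 in GFP(−) cells and was 5.46-fold higher. PCDH20 (ENSDARG00000036424) was 4.39-fold higher with 202 against 46, and pcdh7a (ENSDARG00000078898) 4.34-fold with 341 against 78.5. Its co-orthologue PCDH7 (ENSDARG00000060610) had 444 against 191, a 2.32-fold difference in the same direction. In Xenopus, the PCDH7 orthologue is the NF-protocadherin of the embryonic skin. The ratios of PCDH20 and pcdh7a fell below 3-fold with a pseudocount of 100, at 2.07-fold and 2.47-fold, whereas that of PCDH1 was 4.67-fold. In the summed reads of the group, this PCDH1 gene decided the direction. The 15 genes together had 4818.5 reads in GFP(+) cells against 3944 in GFP(−) cells, but without it 2288.5 and 3481.

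Of the 15 protocadherins, 9 had ratios below 1. The PCDH18 gene ENSDARG00000089805 was at least 9.84-fold lower, from 472.5 reads in GFP(−) cells, and its co-orthologue ENSDARG00000052494 had 128 against 517.5 and was 4.04-fold lower. PCDH19 (ENSDARG00000034344), in which mutations cause epilepsy in humans, had 132 against 494 and was 3.74-fold lower. pcdh8 (ENSDARG00000006467), the paraxial protocadherin of the early embryo, had 139 against 343 and was 2.47-fold lower. PCDH17 (ENSDARG00000027041) had 224.5 against 547 (2.44-fold lower), and a further PCDH1 gene, ENSDARG00000062720, had 120.5 against 284 (2.36-fold lower). The remaining 4 genes were within 2-fold. They were PCDH8 (ENSDARG00000042586), PCDH11Y (ENSDARG00000033556), pcdh9 (ENSDARG00000063264) and PCDH12 (ENSDARG00000076594), an endothelial protocadherin, and their log2 ratios lay between −0.21 and 0.62.

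**Figure D2:**
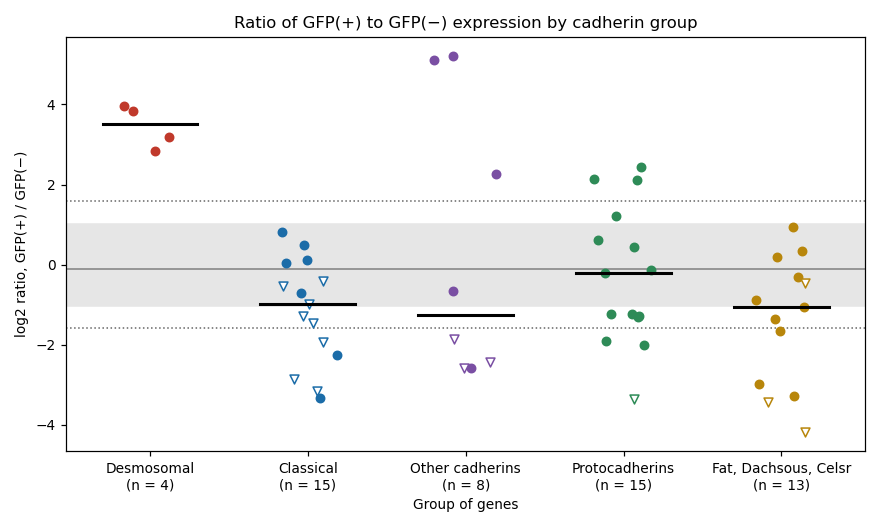
Log2 ratio of GFP(+) to GFP(−) normalized reads of each gene, by group, with the group median as a black bar. Open triangles are genes with a GFP(+) value of 48 or less, the dotted lines mark 3-fold, and the grey line and band give the median and quartiles of all 17668 genes. The desmosomal points, at 2.84 to 3.97, lie above every classical, protocadherin and Fat, Dachsous or Celsr point.

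Of the 13 Fat, Dachsous and Celsr genes, 10 had ratios below 1 and 3 above, where 9260 of all 17668 genes lay below 1. None was 3-fold higher, against 16.9% of all genes, and 5 (38.5%) were at least 3-fold lower, against 16.4% of all genes. The median log2 ratio was −1.07, against −0.10 for all genes. The largest Fat difference in absolute reads was that of the FAT1 gene ENSDARG00000017591, which had 2756 normalized reads in GFP(−) cells but 352.5 in GFP(+) cells, and was 7.82-fold lower. A further FAT1 gene, ENSDARG00000019063, had 67 against 83.5. FAT3 (ENSDARG00000033840), known from retinal neurons, was at least 4.46-fold lower, from 214 reads. FAT4 (ENSDARG00000045665), the receptor for Dachsous in vertebrates, had 145 against 372 and was 2.57-fold lower. FAT2 (ENSDARG00000018923) had 224.5 in GFP(−) cells but 283 in GFP(+) cells, and was the only Fat gene with a ratio above 1.

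Of the Dachsous genes, which encode the partners of Fat, dchs1a (ENSDARG00000070025) was at least 7.59-fold lower, from 364.5 reads in GFP(−) cells. dchs1b (ENSDARG00000079850) had 295 against 618.5, a log2 ratio of −1.07. dchs2 (ENSDARG00000037286) had 35 reads in GFP(−) cells, and no direction can be read for it. With the values of both dchs1 genes summed and that of dchs1a set to 48, the pair was at least 2.87-fold lower.

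The Celsr genes had unlike ratios. celsr1b (ENSDARG00000058259) had 74.5 normalized reads in GFP(+) cells against 725.5 in GFP(−) cells and was 9.74-fold lower. Its co-orthologue CELSR1 (ENSDARG00000069185) had 943 against 488, which is 1.93-fold higher. Without replicates, such a difference within 2-fold cannot be told from none. Summed over both genes, CELSR1 was 1.19-fold lower, so that the sum hid a difference of 4.23 between their log2 ratios. CELSR3 (ENSDARG00000055825), which in mice guides axons, had 85 against 268.5 and was 3.16-fold lower. The CELSR2 genes had 217.5 against 399.5 (ENSDARG00000019726) and 162 against 143 (ENSDARG00000088231).

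Of the other pairs that share a gene name, the PCDH1 genes went in opposite directions, and their log2 ratios differed by 3.69. Those of the FAT1 genes, of which ENSDARG00000019063 was within 2-fold between the populations, differed by 2.65. The log2 ratios of the cdh26 genes, both higher, differed by 2.94 and those of the desmoplakin genes, both higher, by 0.34. Reads that match more than 1 of such copies could have been assigned unequally or left out in counting, and how they were treated is not given in the sources used here.

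The comparison of the desmosomal, classical and protocadherin groups separated the first from the rest. The lowest desmosomal ratio, 7.18, was above the highest classical ratio, 1.75, and above the highest protocadherin ratio, 5.46. The desmosomal median log2 ratio exceeded the classical median by 4.50 and the protocadherin median by 3.73. Between protocadherins and classical cadherins the medians differed by 0.77, and this difference changed its sign, to −0.18, with GFP(+) values of up to 48 set to 48. A difference between those groups could therefore not be read. Of the other cadherins, cdh26.2 and cdh27 exceeded the lowest desmosomal ratio.

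The makeup of the summed reads of the 55 genes differed accordingly between the populations. Desmosomal genes held 80.4% of the summed normalized reads of the 55 genes in GFP(+) cells and 20.1% in GFP(−) cells. Classical cadherins held 2.14% and 24.9%, Fat, Dachsous and Celsr genes 3.94% and 28.7%, protocadherins 7.06% and 16.9%, and the other cadherins 6.51% and 9.44%. These are shares of reads, to which long transcripts contribute more, and only the difference between the libraries can be read from them. All 55 genes together had 68263 normalized reads in GFP(+) cells against 23304 in GFP(−) cells (2.93-fold higher). Without the desmosomal group they had 13410 and 18630 and were 1.39-fold lower.

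**Figure D3:**
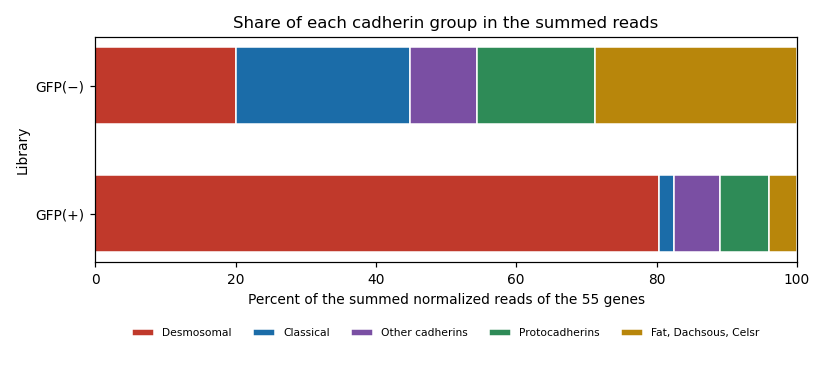
Percent of the summed normalized reads of the 55 genes that each group held in the GFP(−) and the GFP(+) library, 1 library each, not adjusted for transcript length. The desmosomal share, which includes desmoplakin, is 20.1% in GFP(−) cells and 80.4% in GFP(+) cells. The classical share is without cdh1, which was not analysed.

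The cytoplasmic partners of cadherins were described alongside. A list of 58 symbols of catenins, plaque proteins and planar polarity proteins matched 42 genes outside the members, of which 25 belong to junctions and 17 to planar polarity. Of the junction genes, 11 (44.0%) were higher by 3-fold or more, against 16.9% of all genes, and 3 of 25 were lower by as much, against 16.4%, with a median log2 ratio of 1.16. Of the planar polarity genes, 1 was at least 3-fold higher (5.88%) and 3 at least 3-fold lower (17.6%), the latter a share near that of all genes, with a median of −0.63.

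The junction genes with high ratios included plaque proteins of the desmosome. The plakophilin gene pkp3a (ENSDARG00000051861) reached 29674.5 normalized reads and was 21.6-fold higher, and pkp1a (ENSDARG00000090598), at the floor in GFP(−) cells and at 192.5 otherwise, was at least 9.63-fold higher. With 100 added to both values, pkp1a was 2.44-fold higher. A further PKP1 gene (ENSDARG00000052705) was 6.24-fold higher. JUP (ENSDARG00000070787), which encodes plakoglobin, the catenin shared by desmosomes and adherens junctions, was 6.33-fold higher, and pkp2 (ENSDARG00000023026) 5.52-fold. PERP (ENSDARG00000063572), a membrane protein of desmosomes, was 5.37-fold higher. The envoplakin gene evpla (ENSDARG00000019808), which is also in the list of superficial epidermis genes, was 40.3-fold higher. Not all such genes were higher by 3-fold. A further PKP3 gene (ENSDARG00000079438) had 343.5 against 350, and a further JUP gene (ENSDARG00000059067) was 2.04-fold higher, with 113 against 55.5. PKP4 (ENSDARG00000045331) was 1.65-fold lower. High ratios among the junction genes were not confined to the genes above. LMO7 (ENSDARG00000004930) was 10.3-fold higher, lmo7b (ENSDARG00000053535) 7.28-fold and VCL (ENSDARG00000044968) 6.37-fold. AJUBA (ENSDARG00000077842), also in the junction list, was 4.01-fold lower.

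The catenin genes went in both directions. CTNNB1 (ENSDARG00000014571), which encodes beta-catenin, was 2.25-fold lower in GFP(+) cells, at 4077.5 reads. CTNNA2 (ENSDARG00000024785), the alpha-catenin of neurons, was at least 8.28-fold lower, and ctnnd2b (ENSDARG00000003779), a delta-catenin of neurons, 6.90-fold. A further CTNND2 gene (ENSDARG00000062415) was only 1.14-fold lower, with 113.5 against 129. The CTNND1 genes, which encode p120-catenin, were 3.58-fold (ENSDARG00000078233) and 2.24-fold higher (ENSDARG00000075845). Of the planar polarity genes, which act together with Celsr, PRICKLE1 (ENSDARG00000040649) reached 5204.5 reads and was 17.7-fold higher, whereas a further PRICKLE1 gene (ENSDARG00000045694) was 1.59-fold lower. VANGL2 (ENSDARG00000027397) was 1.70-fold lower. Of the FZD3 genes, which encode a Frizzled receptor, ENSDARG00000021664 was 4.58-fold lower and ENSDARG00000058692 was 1.46-fold higher.

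**Figure D4:**
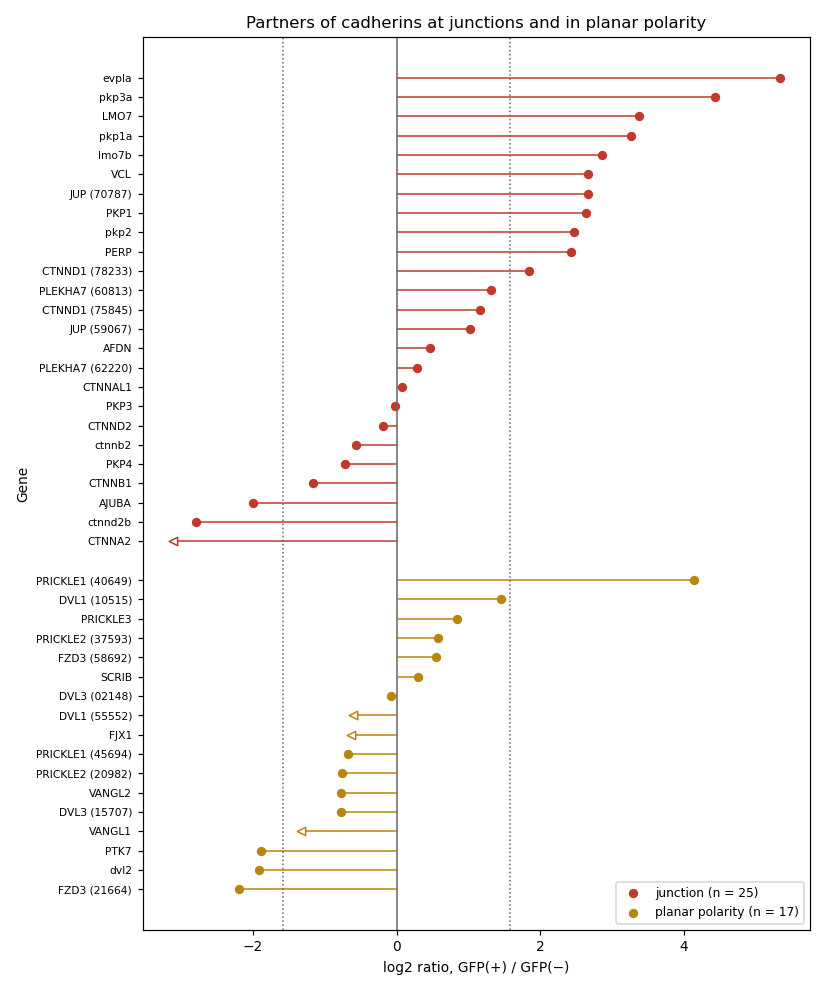
Log2 ratio of GFP(+) to GFP(−) normalized reads of 25 junction genes (red) and 17 planar polarity genes (ochre), with dotted lines at 3-fold and open symbols for GFP(+) values of 48 or less. Plaque genes such as evpla, pkp3a and JUP (ENSDARG00000070787) lie at the high end, as do LMO7, lmo7b and VCL. The neuronal catenins ctnnd2b and CTNNA2 lie at the low end.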

How the data were processed

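Bulk RNA-seq values of sorted GFP(+) and GFP(−) cells, 1 library each, were compared. The authors used TopHat for alignment to Zv9 and HTSeq for counting on Ensembl gene models. The deposited unit is a signal per gene, obtained from these counts by quantile normalization and a floor of 20. The authors describe the floor as the later step. The title of the table names a minimum of 40 reads and gives the floor before the normalization. Which order was used was not tested. Depth, and the precision it gives, is unknown.

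Ratios and log2 ratios were computed on the values as deposited. No test was made between single libraries, and genes are described by size, with 3-fold as the limit. Lists are described by counts and medians beside those of all genes. Names came from a table that matched 14593 genes and from 3758 deposited symbols. For neighbouring genes, 33 member symbols matched the RefSeq annotation of GRCz12tu, of which only protein-coding genes were put in order. A further 57 identifiers with cadherin names in the table of names were not analysed here.

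Named were all members outside the protocadherins, and of these the 10 highest and 10 lowest ratios with GFP(+) values above 48 and the abundant genes. The PCDH18 gene ENSDARG00000089805 falls outside this rule and was named after its value was seen, as were the partner genes and markers. Members and lists were chosen with earlier results of these data known. Group and count functions were tested on simulated data. The 7 alternatives were pseudocounts of 20 and 100, a mean of at least 100, values above the floor in each library, centring on the median, GFP(+) values of up to 48 set to 48, and names from the table only. Python 3.11.15, numpy 2.4.6, pandas 2.3.3 and matplotlib 3.10.9 were used.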

Additional observations from a re-analysis of the deposited data

How the results depend on the processing

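No paired analysis was possible because each population had 1 library. The desmosomal median stayed within 1.5 times of the reported value with all 7 alternatives, and its 4 genes stayed at least 3-fold higher. Only the pseudocounts and the centring could change this median. Its log2 value was 3.48 with a pseudocount of 20, 3.32 with 100 and 3.62 when centred. The filters, the setting to 48 and the table names left the same 4 genes and values, so they could not test it. The share of all genes at least 3-fold lower was recomputed only with GFP(+) values of up to 48 set to 48 (14.6%). Counts with the other alternatives therefore have no background beside them, and no excess over all genes can be read from them. With a pseudocount of 100, the number of genes at least 3-fold lower became 8 for all members, 3 for classical cadherins, 1 for other cadherins, 1 for protocadherins, 3 for Fat, Dachsous and Celsr and 2 for the partners, and 1 protocadherin was at least 3-fold higher. The median log2 ratio became −0.31 for classical and −0.57 for other cadherins, and the desmosomal median exceeded the classical by 3.64. With a minimum mean of 100, the medians were −2.24 for 5 classical and 2.27 for 5 other cadherins, of which 1 was at least 3-fold lower. The desmosomal and the protocadherin medians then exceeded the classical by 5.76 and 1.52. With genes above the floor only, or with names from the table only, the other cadherins had a median of 0.81, a change of sign, over 6 genes, of which 2 were at least 3-fold lower. Above the floor, 3 Fat, Dachsous and Celsr genes were at least 3-fold lower. With GFP(+) values of up to 48 set to 48, the classical median was −0.030 and 2 other cadherins were at least 3-fold lower. The desmosomal median then exceeded the classical by 3.55, and the difference of protocadherins from classical cadherins was −0.18, a change of sign, as it was with names from the table only (−0.026). Fewer genes entered with the filters and the table names. For single members, 37 of 305 recomputed log2 ratios moved by more than 1.5 times. No ratio of 3-fold or more changed its sign, but none of these alternatives could have changed it. Because depth is unknown, how far it limits the low values cannot be given.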

Other observations

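The 4 genes that fitted the symbol rule by letters only were lower in GFP(+) cells or near the tied range. The DSCAM genes, which encode immunoglobulin adhesion molecules of neurons, had 74.5 normalized reads in GFP(+) cells against 805 in GFP(−) cells (ENSDARG00000028118, 10.8-fold lower) and 234 against 774 (ENSDARG00000024865, 3.31-fold lower). DSCAML1 (ENSDARG00000057052), a relative of DSCAM, had 682 against 1093.5 (1.60-fold lower). DSCC1 (ENSDARG00000019907), a factor of sister chromatid cohesion, had 72 in GFP(−) cells and a GFP(+) value of 36.

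The tip link cadherins, which the rule left out, had ratios above 1. CDH23 (ENSDARG00000007561) was at the floor in GFP(−) cells and at 160.5 normalized reads in GFP(+) cells, and was at least 8.03-fold higher. PCDH15 (ENSDARG00000008127) and pcdh15b (ENSDARG00000071772) were 2.65-fold and 2.40-fold higher, with 165.5 and 115 reads in GFP(+) cells. These ratios rest on low GFP(−) values. With 100 added to both values they became 2.17-fold for CDH23, 1.63-fold for PCDH15 and 1.45-fold for pcdh15b.

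Neighbouring cadherin genes did not always have similar ratios. Among the protein-coding genes of the RefSeq annotation, cdh6 and cdh10a are direct neighbours on chromosome 2, but no direction can be read for cdh10a. On chromosome 7, cdh8, cdh11 and cdh5 follow each other. The log2 ratio was 0.03 for CDH8 and −3.32 for CDH11.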
